A study of Homo sapiens with 10 samples.

Results

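Chromatin and MYC binding at 7 genes of cell-cycle entry were examined in RPMI-8402 cells. This established human line derives from T-cell acute lymphoblastic leukaemia (T-ALL). The genes were CDKN1B, CDK6, CCND3, CCND2, CDK4, CDKN2A and RB1, each taken as a fixed hg19 window around the gene. The windows add up to 682 kb and hold 119 of the 121294 called regions of the 6 lists analysed here. All libraries came from this 1 line, with no treatment, genotype or time recorded beyond the antibody and the labelled set. CUT&RUN, in which an antibody in permeabilised cells recruits a nuclease that frees the DNA beside its target, was done against MYC in sets C and D. Set C also held H3K27ac and H3K4me1, set B held H3K4me3, and set A held MYCN. A further 4 libraries, 1 a set, used control IgG and are not analysed here. H3K4me3 marks active promoters, H3K27ac active promoters and enhancers, and H3K4me1 mainly enhancers.

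Passage from G1 into DNA synthesis is governed by D-type cyclins, which activate the kinases CDK4 and CDK6 to phosphorylate the retinoblastoma protein and so free E2F transcription factors. Inhibitor proteins hold this step back: p16, made from CDKN2A, binds CDK4 and CDK6 directly, and p27, made from CDKN1B, inhibits cyclin-CDK complexes more broadly. MYC is a transcription factor that binds E-box DNA as a partner of MAX and drives cells into the cycle, and MYCN is its close relative. In T-ALL, CDK6 and cyclin D3 are known dependencies, and CDKN2A is often deleted.

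Every list gives positions only, so there is no read count, depth or score behind a region, and the depth is unknown. MYC is the only target with 2 libraries, and the headers of both MYC lists name the same signal track, so their independence is not settled. In the control label of MYC of set D stands that same library. No test was made between the windows and the genome: counts of members stand beside the same counts over all regions. The list lengths were 9498 for MYC of set C, 18018 for MYC of set D, 895 for MYCN, 13852 for H3K4me3, 39528 for H3K27ac and 39503 for H3K4me1. The T-cell label could not be set against marker genes, since an hg19 annotation was not used here. By the order of genes in RefSeq, CDKN1B lies between GPR19 and APOLD1, CCND3 between BYSL and TAF8, and CDK4 between TSPAN31 and MARCHF9, so a region of those windows need not belong to the gene that names it.

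The promoters of 3 members are shown because they carry the E-box comparison. Each runs from 250 bases before to 50 after the annotated start, 5′ to 3′ on the gene's own strand, from RefSeq on GRCh38.p14, and capitals mark the E-box CACGTG, which reads the same on both strands. They lie at chr12:57752261-57752560 on the minus strand for CDK4, chr7:92836524-92836823 on the minus strand for CDK6 and chr12:12717118-12717417 on the plus strand for CDKN1B.
CDK4 promoter: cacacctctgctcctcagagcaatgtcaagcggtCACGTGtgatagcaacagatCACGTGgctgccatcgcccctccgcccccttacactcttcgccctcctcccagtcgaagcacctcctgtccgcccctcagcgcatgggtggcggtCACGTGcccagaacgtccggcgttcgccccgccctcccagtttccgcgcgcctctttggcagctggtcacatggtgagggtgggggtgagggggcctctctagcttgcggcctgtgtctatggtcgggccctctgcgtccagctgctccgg
CDK6 promoter: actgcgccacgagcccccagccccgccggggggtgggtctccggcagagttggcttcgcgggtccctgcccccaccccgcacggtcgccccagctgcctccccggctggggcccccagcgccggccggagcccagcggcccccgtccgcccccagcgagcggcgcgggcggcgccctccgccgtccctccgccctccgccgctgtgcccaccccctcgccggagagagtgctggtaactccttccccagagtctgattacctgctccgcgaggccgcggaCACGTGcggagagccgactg
CDKN1B promoter: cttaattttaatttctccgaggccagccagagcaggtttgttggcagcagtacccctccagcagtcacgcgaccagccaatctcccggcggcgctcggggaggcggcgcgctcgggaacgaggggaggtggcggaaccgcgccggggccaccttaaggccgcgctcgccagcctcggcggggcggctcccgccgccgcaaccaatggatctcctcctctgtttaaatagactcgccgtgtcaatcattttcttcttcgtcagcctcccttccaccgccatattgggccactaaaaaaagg

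The CDK4 promoter holds 3 copies of CACGTG, whose first bases lie at -216, -196 and -101, counted from 0 at the annotated start. Of 35116 RefSeq promoters of this length, 7.26% hold at least 1 copy, 0.664% at least 2 and 0.094% (33 promoters) at least 3. The CDK6 promoter holds 1 copy, with its first base at 30, and the promoter of a CDK6 start farther inside the gene holds none. CDKN1B, the 3 listed CCND3 promoters, the 2 listed CDKN2A promoters and the 1 listed RB1 promoter hold none in these windows. Of these, the CCND3 entries, the second CDKN2A entry and the RB1 entry belong to starts other than the outermost start of the gene. The table matched 6 of the 7 members, and CCND2 had no entry. These sequences are on another build than the peaks, so a motif could not be placed inside a peak.

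MYC was listed in 6 of the 7 windows, all but CDKN2A. MYC of set D was found in those 6, and MYC of set C in 5, with RB1 the window that it lacked. H3K27ac was listed in 6 windows, H3K4me3 in 5 and H3K4me1 in 5. MYCN was listed in none of the 7. The share of gene windows of like length that hold each list was not computed, so these counts do not set the 7 genes apart. Over the genome, MYC of set C had 0.322 and MYC of set D 0.611 regions per 100 kb. MYCN had 0.0303, so its absence from windows of 682 kb in all says little about these genes. The nearest MYCN peak lay 9.23 kb outside the CDK6 window, at chr7:92219366-92219766, the next 13.7 kb outside the CDK4 window at chr12:58165665-58165948, and those nearest the other 5 windows between 82.5 and 489 kb away.

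**Figure D1:**
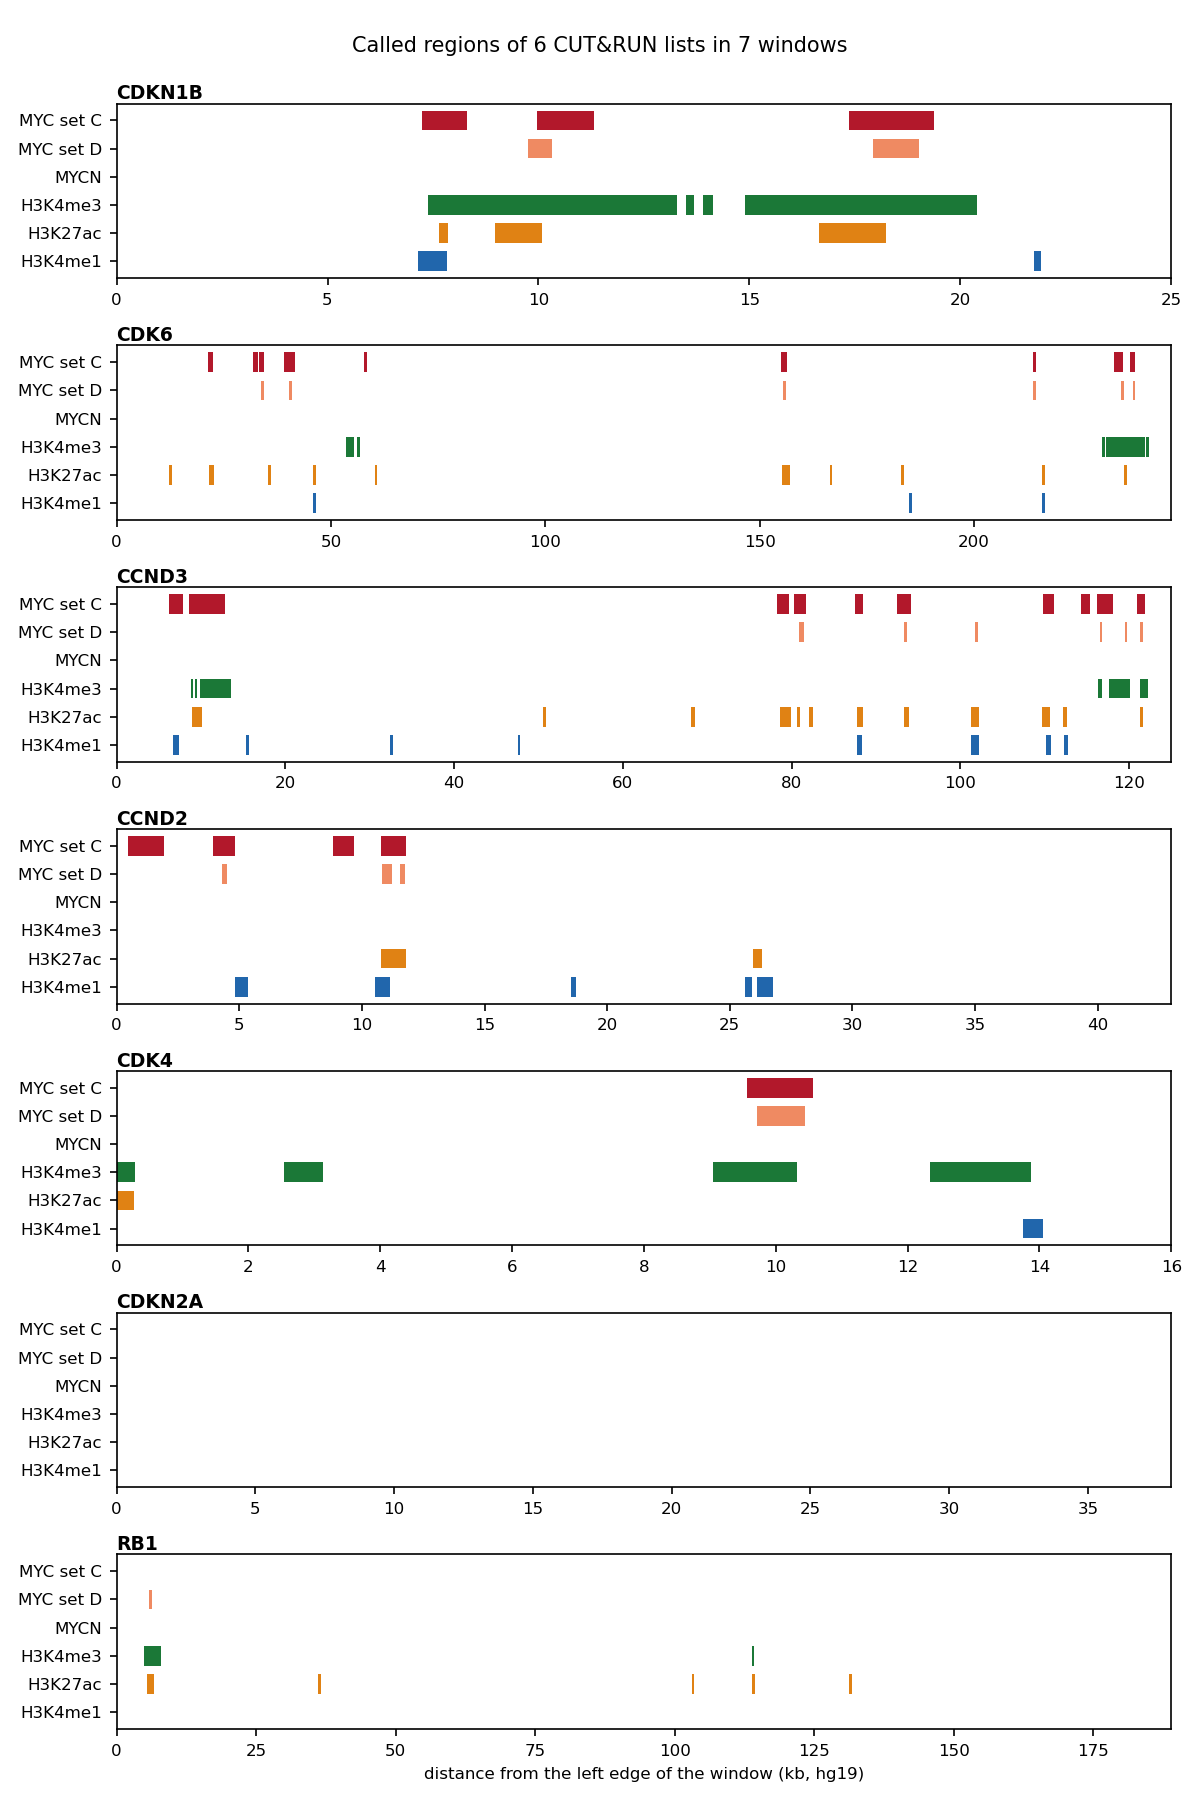
Called regions of the 6 lists in each of the 7 windows, from the left edge of the window in kb; each row of a panel is 1 list and each block 1 region, cut at the window's edge, with the narrowest drawn wider than to scale so that they stay visible. CDKN2A is empty in all rows, CCND2 has no H3K4me3, and the MYCN row is empty throughout.

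Together the windows were covered more densely than the genome between the outermost peaks of each chromosome. MYC of set C covered 5.69% of the window bases against 0.417% of the genome, and MYC of set D 1.25% against 0.297%. H3K4me3 covered 5.75% against 0.668%, H3K27ac 3.17% against 0.877% and H3K4me1 1.20% against 0.540%. These windows are centred on genes and the genome is mostly not, which enters every such ratio. The members ranged widely around these values. H3K4me3 covered 47.3% of the CDKN1B window, 23% of CDK4, 6.52% of CCND3, 4.96% of CDK6, 1.78% of RB1 and none of CCND2 or CDKN2A. MYC of set D covered 6.66% of the CDKN1B window and 4.53% of CDK4, but 0.265% of RB1, a value just under that of the genome. Windows differ in how much sequence beyond the promoter they take in, from 16 kb for CDK4 to 246 kb for CDK6, so these shares do not rank the genes.

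**Figure D2:**
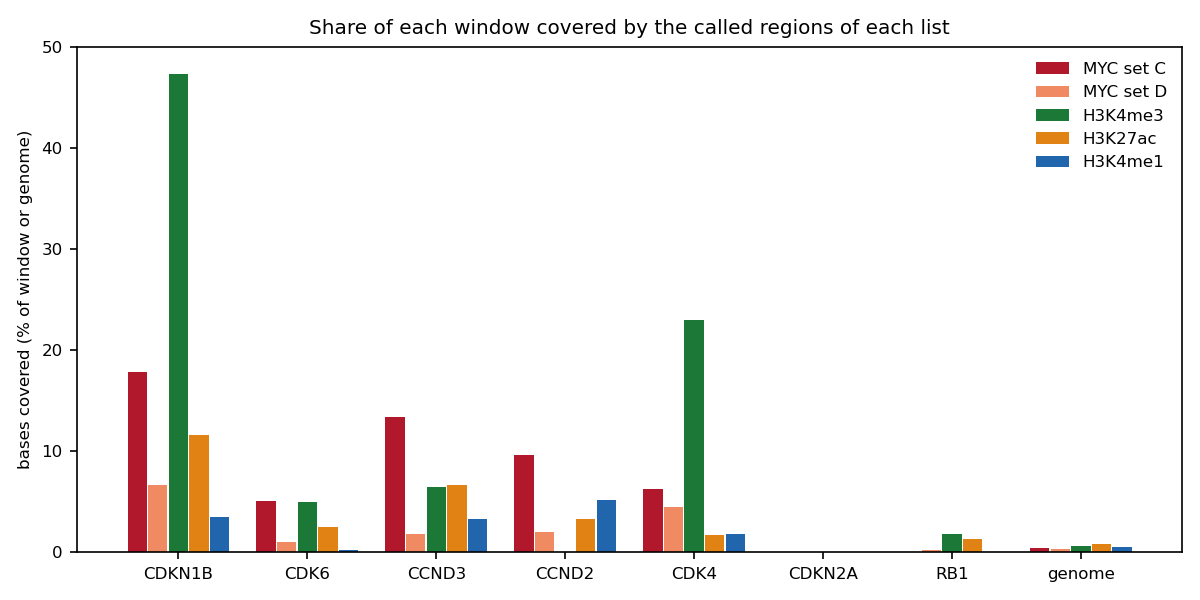
Share of bases covered by each list other than MYCN, in percent of the window for the 7 genes and in percent of the genome in the rightmost group; bars start at 0 and there are no replicates, so no error bars. H3K4me3 reaches 47.3% at CDKN1B and 23% at CDK4, against 0.668% of the genome.

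Taken by region, the H3K4me3 regions of the windows met MYC in 12 of 21 cases (57.1%, exact 95% interval 34.0 to 78.2%), against 76.7% of all H3K4me3 regions. MYC of set C was met by 11 of 21, against 47.9% of all, and MYC of set D by 8 of 21, against 72.3%. Both sets met 7 of 21, against 43.4%. H3K27ac was met by 10 of 21 (47.6%, 25.7 to 70.2%), against 66.2%, and H3K4me1 by 2 of 21, against 14.4%. MYCN was met by 0 of 21 (upper bound of the exact interval 16.1%), against 5.1% of all H3K4me3 regions. The interval of the set D share was 18.1 to 61.6%. Several of these regions are short pieces of 1 broad domain, which count separately here. Pieces of 196 and 234 bp at CDKN1B and of 680 and 252 bp at CDK6 each counted as a region without MYC. The regions are thus not independent. All such intervals cover at most the counting error of independent regions, and none serves as a test.

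The CDKN1B window held the broadest H3K4me3 domain when regions were joined across gaps of up to 1 kb. Among the 11978 domains so made, that of this window, at chr12:12867383-12880390, was the widest with 13008 bp. It was not first under the other settings tried: without joining, its widest region had 5894 bp and 0.166% of regions were at least as wide, and with joining within 5 kb it stood at 0.206% of the ranking. It consisted of 2 long regions of 5894 and 5500 bp with pieces of 196 and 234 bp between them, and the 2 long ones were already among the 32 widest single regions. MYC occupied both long parts. MYC of set C had regions of 1077 bp at the left edge, 1359 bp at chr12:12869963-12871321 and 2018 bp at chr12:12877358-12879375. MYC of set D had peaks of 571 bp at chr12:12869760-12870330 and 1094 bp at chr12:12877930-12879023, in the same 2 places as the last 2 of set C. Of the 18018 set D peaks, 552 were at least as wide as that of 1094 bp, which lay on the side of the domain towards APOLD1. Gene starts on hg19 were not used, so whether both long parts belong to CDKN1B or 1 of them to APOLD1 was not determined. All 3 H3K27ac regions of the window lay in the domain, with 227, 1100 and 1575 bp, and covered 22.3% of it. The centre of the domain, between the MYC region that ends at 12871321 and the acetylated region that starts at 12876652, held neither acetylated nor MYC regions. H3K4me1 met only the left edge, with 697 bp, and a second region of 169 bp lay past the right edge.

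CDK6 held the widest single H3K4me3 region of all 13852, at chr7:92459776-92468940 with 9165 bp. With a piece of 680 bp before it and 252 bp after it, it made a domain of 10483 bp, which ranked 3 of 11978 and stood at 0.511% of the ranking when regions were joined within 5 kb. Acetylation was sparse there: 1 H3K27ac region of 719 bp, at chr7:92464045-92464763, covered 6.86% of the domain, against a median of 15.8% (quartiles 8.35 and 25.9%) over the 130 domains of at least 5 kb. Of those 130, 29 had an acetylated share at or below that of CDK6, and 86 at or below that of CDKN1B. MYC stood on both sides of the acetylated region without touching it. On the left were a set C region of 2244 bp at chr7:92461603-92463846 and a set D peak of 367 bp at chr7:92463380-92463746. On the right were a set C region of 1214 bp at chr7:92465274-92466487 and a set D peak of 199 bp at chr7:92466021-92466219. MYC covered 33.0% of the domain by set C and 5.40% by set D, against medians of 32.1% and 12.1% over the wide domains. No H3K4me1 region overlapped it.

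**Figure D3:**
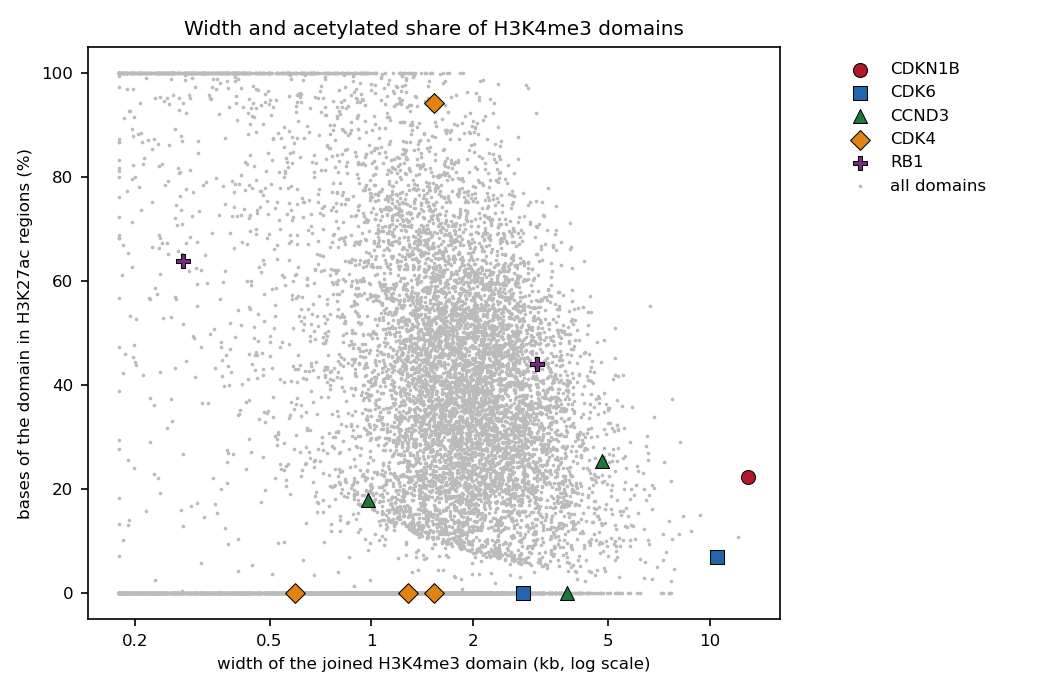
Each point is 1 joined H3K4me3 domain, with its width in kb on a log axis and the share of its bases in H3K27ac regions in percent; members are coloured by gene and grey points are all 11978 domains. CDKN1B and CDK6 lie at the right end with widths of 13008 and 10483 bp and acetylated shares of 22.3% and 6.86%, while 3 CDK4 domains, 1 of CCND3 and 1 of CDK6 lie at 0.

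CCND3, which encodes cyclin D3, had a domain at each end of its window. The broader, at chr6:41905780-41910567 with 4788 bp, ranked 162 of 11978. MYC of set C covered 85.9% of it with 1 region of 4353 bp, at chr6:41905541-41909893, and 42 of the 9498 regions of that list were at least as wide. MYC of set D had no peak in this domain. At the other end, the domain of 3795 bp at chr6:42013332-42017126 had MYC of both sets, in 1 region of set C and 2 peaks of set D, and no H3K27ac. Beside it, a region of 977 bp at chr6:42018236-42019212, towards TAF8, had MYC of both sets and 1 acetylated region of 175 bp. All 6 H3K4me3 regions of the window overlapped MYC of set C, and 3 overlapped MYC of set D.

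CDK4, the kinase partner of D-type cyclins, had MYC without acetylation at its own H3K4me3 region. At chr12:58145045-58146327 the region of 1283 bp, of middling width with rank 7639 of 11978, overlapped a MYC region of set C of 1000 bp at chr12:58145569-58146568 and a MYC peak of set D of 725 bp at chr12:58145723-58146447. These were the only MYC regions of the window. The highest MYC signal of set C began at 58146329, 2 bp past the end of the H3K4me3 region. The nearest H3K27ac region lay 10060 bp away, at chr12:58134822-58136269 on the window's edge, in an H3K4me3 region of 1535 bp that is mostly outside the window. That edge region is the broadest of the window by rule, was acetylated over 94.3% of its length and overlapped MYC of set C outside the window. The other H3K4me3 regions, of 594 bp at chr12:58138545-58139138 and 1526 bp at chr12:58148341-58149866 towards MARCHF9, held no MYC of either set. The second of these met the only H3K4me1 region of the window, of 295 bp. Regions with MYC of both sets and no H3K27ac numbered 3 of 21 in the windows, the CDK4 region and 2 of CCND3, against 7.13% of all H3K4me3 regions.

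RB1, the gene of the retinoblastoma protein, had a compact promoter pattern. Its H3K4me3 region at chr13:48876841-48879919 had 3079 bp and ranked 1019 of 11978. Within it lay an H3K27ac region of 1354 bp at chr13:48877397-48878750, and inside that a MYC peak of set D of 500 bp at chr13:48877806-48878305. MYC of set C had no region in the window, the nearest being 5.31 kb past its right edge and 1500 kb past its left. A second H3K4me3 region, of 277 bp at chr13:48985786-48986062, met an H3K27ac region of 267 bp and no MYC. The 3 remaining H3K27ac regions were between 290 and 325 bp wide and met no other list, and H3K4me1 was not listed in its 189 kb.

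**Figure D4:**
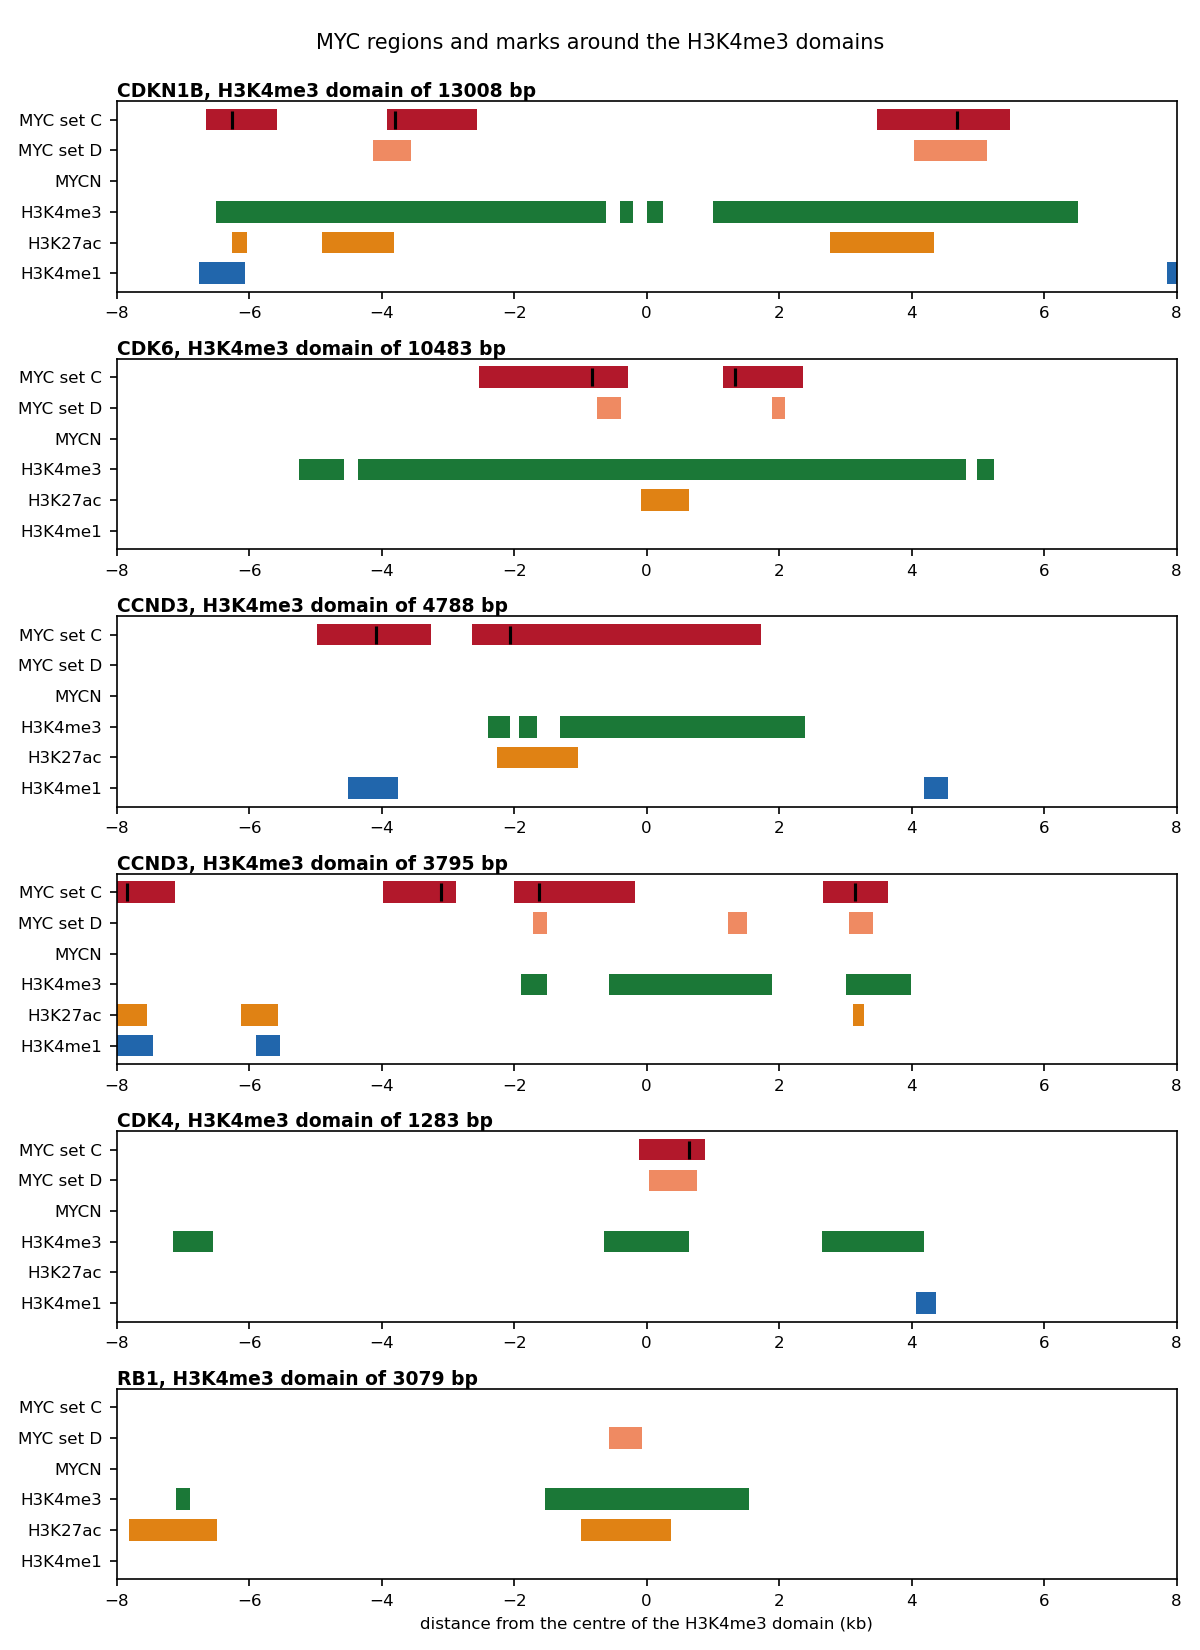
Regions of the 6 lists around the centre of 6 H3K4me3 domains, with distance from it in kb; each row is 1 list and black ticks mark the start of the highest signal in each MYC region of set C. MYC of both sets flanks the 719 bp acetylated region of CDK6 and overlaps H3K4me3 without H3K27ac at CDK4, while RB1 has MYC of set D alone.

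CCND2, the gene of cyclin D2, was free of H3K4me3 but not of MYC. Its window held 4 MYC regions of set C, 3 MYC peaks of set D, 2 H3K27ac and 5 H3K4me1 regions. The nearest H3K4me3 regions lay 103 kb to the left and 9.73 kb to the right of the window. MYC of both sets, H3K27ac and H3K4me1 came together at 1 place, in the acetylated region of 1029 bp at chr12:4387765-4388793. There set C had a region of 984 bp at chr12:4387799-4388782, set D had peaks of 419 and 235 bp, and H3K4me1 had 597 bp. The other 3 MYC regions of set C, from 844 to 1439 bp wide, overlapped none of the 3 marks, and 1 of them held a set D peak of 213 bp at chr12:4381289-4381501. A second enhancer-like place, an H3K27ac region of 385 bp at chr12:4402931-4403315 with H3K4me1 of 634 bp, held no MYC.

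CDKN2A, from which p16 and ARF are made, was empty in all 6 lists over 38 kb. The stretch without any region ran for 405 kb, from 21804180 to 22209252 on chromosome 9. It ranked 1087 of 64139 such stretches, or in the longest 1.69%, a ranking that includes assembly gaps, and the median stretch was 11.4 kb. At its left edge stood an H3K4me3 region at chr9:21801831-21804179 with MYC of both sets, a MYCN peak at chr9:21803186-21803513 and H3K27ac. At its right edge was an H3K27ac region alone, and the next MYC region of either set in that direction lay 4892 kb from the window. The longest empty stretch touching any other window was 94.5 kb, at CDK6, and the shortest of these maxima was 7.87 kb, at CDKN1B. The number of copies of the CDKN2A locus in these cells was not measured here.

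The CDK6 and CCND3 windows carried most of the acetylated regions, 10 and 12 of 33. CDK6 is also the longest window, with 246 kb. H3K27ac covered 2.5% of the CDK6 window and 6.67% of the CCND3 window, against 3.17% of all window bases. H3K27ac regions met H3K4me3 in 9 of 33 cases against 23.2% of all, and H3K4me1 in 9 of 33 (27.3%, 13.3 to 45.5%) against 45.3%. MYC in at least 1 set met 16 of 33 H3K27ac regions (48.5%, 30.8 to 66.5%), against 34.6% of all. In CCND3 it met 8 of 12 and in CDK6 2 of 10. H3K4me1 regions met H3K27ac in 9 of 19 cases, against 50.4% of all. The H3K4me1 regions with H3K27ac and without H3K4me3, here called enhancer-like, numbered 8, and 4 of them met MYC (exact interval 15.7 to 84.3%), against 20.4% of all such regions. Of these 4, 3 were in CCND3 and 1 in CCND2, and both enhancer-like regions of CDK6 lacked MYC. Each of the 3 CCND3 regions met MYC of 1 set only. With MYC required in both sets the count was 1 of 8 (12.5%). Among regions at or above the median width of their lists it was 1 of 5 (20%). The interval of 15.7 to 84.3% includes the 20.4% of all such regions. The share over all such regions was not computed under either of these stricter rules, so no comparison with it was made there.

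CCND3 held the longest cluster of acetylated regions inside a window. H3K27ac regions joined across gaps of up to 10 kb gave 28279 clusters, of which 75.2% were a lone region. The CCND3 cluster at chr6:41975602-42018511 had 42910 bp and 9 regions and ranked 56. It overlapped 8 MYC regions of set C, 6 peaks of set D, 3 H3K4me3 and 4 H3K4me1 regions. Acetylated regions covered 14.6% of its length. Its widest H3K27ac region had 1354 bp and its widest H3K4me1 region 974 bp, and that H3K4me1 region, at chr6:41998204-41999177, held MYC of set D alone. The CDKN1B domain lay in a cluster of 40544 bp, chr12:12849427-12889970, which ranked 72, reached past both edges of the window and was acetylated over 10.6% of its length. The longest CDK6 cluster had 11296 bp, at chr7:92384247-92395542 inside the gene's window, and ranked 1944. Its main region, of 1808 bp at chr7:92384247-92386054, was among the widest 2.27% of H3K27ac regions. That region overlapped MYC of both sets, a region of 1430 bp of set C and a peak of 777 bp of set D, and no H3K4me1. RB1 had a cluster of 8188 bp, and no cluster at CCND2 or CDK4 had more than 1 region.

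A part of the MYC regions of these windows stood outside the marks. Of the 27 MYC regions of set C, 9 overlapped no mark (33.3%, 16.5 to 54.0%), against 8.1% of the whole list, and of the 19 peaks of set D 4 did (21.1%, 6.05 to 45.6%), against 10.5%. In set C, 5 of the 9 were in CDK6, 3 in CCND2 and 1 in CCND3. The widest was in CDK6, at chr7:92268001-92270605 with 2605 bp, among the widest 2.97% of its list, and a set D peak of 371 bp lay inside it. H3K4me3 met 9 of 27 set C regions (33.3%, 16.5 to 54.0%), against 65.9% of all, and 9 of 19 set D peaks, against 56% of all. H3K27ac met 13 of 27 (28.7 to 68.1%), against 78.2%, and 10 of 19, against 70.7%. At CDKN1B all MYC regions of both sets met H3K4me3 and H3K27ac, as did the only MYC peak of RB1. The MYC regions of CDK4 met H3K4me3 alone.

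The MYC lists overlapped unevenly in the windows. Of the set C regions, 15 of 27 overlapped a set D peak (55.6%, 35.3 to 74.5%), against 82.5% of the list. Of the set D peaks, 16 of 19 overlapped a set C region (84.2%, 60.4 to 96.6%), against 45.1%. The 3 set D peaks without set C were 2 in CCND3 and the RB1 peak. CCND3 held 6 of the 12 set C regions without set D, CDK6 3, CCND2 2 and CDKN1B 1. Where the lists overlapped, the highest signal of the set C region lay inside a set D peak in 13 of 15 cases, against 93.6% of all shared regions. The exceptions were the 2244 bp region of CDK6 and the 984 bp region of CCND2. In the 13 set C regions that overlapped H3K27ac, this maximum lay inside the acetylated region in 9, against 79.7% of all such regions. Each set was called with its own peak caller, and differences between the sets cannot be told apart from that. The comparisons of the windows with a whole list use the same lists on both sides and were not tested.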

How the data were processed

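Deposited peak lists of 6 RPMI-8402 CUT&RUN libraries were used, each of 1 library and none described as pooled. Their deposited values are the start and end of each region in bases. The submitters' processing notes give hg19 as the build and name MACS2 and SEACR, with no version given in these sources. Per the file headers, the authors called MYC of set C with SEACR in stringent mode, MYC of set D and H3K4me3 with MACS2, and MYCN with cutruntools. No header accompanies H3K27ac or H3K4me1. SEACR's list names the interval of highest signal in each region, and 16 names were cut short and left out of that comparison. This interval counts as inside a region when any of its bases is, and distances are from its first base.

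Regions on chromosomes 1 to 22 and X were kept, which removed between 0 and 53 of a list. A region belongs to a window, or overlaps another, when they share at least 1 bp. H3K4me3 regions were joined within 1 kb into domains and H3K27ac regions within 10 kb into clusters. Positions are 1-based. Intervals are exact Clopper-Pearson 95% intervals. The overlap code recovered 400 of 400 overlaps planted at midpoints of listed H3K4me3 regions. It matched bedtools 2.31.1 in 30 of 30 list pairs. Figures were drawn with matplotlib 3.10.9, and values came from Python 3.11.15 with scipy 1.17.1 and numpy 2.4.6.

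The members, lists and rules were chosen with earlier results of these data known. The text names the 7 genes, the broadest H3K4me3 domain of each window, MYC found in H3K4me3 in both lists and the widest MYC, H3K27ac and H3K4me1 regions. Other regions were chosen after their values were seen. Gene models, further G1/S genes and cell-type markers on hg19 are not analysed here. The alternatives were MYC from either set alone or both, centres in place of overlaps, only regions at or above their list's median width, windows widened by 10 kb a side, and other joining distances. The comparisons with the signal maxima, and of MYC without H3K27ac, were added after the data were examined.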

Additional observations from a re-analysis of the deposited data

How the results depend on the processing

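The lists hold no score or depth, so the widths and the joining distances are the only thresholds that could be varied. Of the 27 alternative values for the main counts and shares, 23 stayed within 1.5 times the count or within the interval of the share. The intervals for H3K4me3 and enhancer-like regions are wide (34.0 to 78.2% and 15.7 to 84.3%), so a fall from 50 to 20% counted as within. Of the 28 for the widths and lengths per window, 18 stayed within 1.5 times and 10 moved further. The 18 include CDKN2A and the H3K4me3 domain of CCND2, where no region was listed and the value was 0 throughout. With MYC counted only where both sets had it, the share of H3K4me3 regions with MYC was 33.3% (57.1% with either set) and that of enhancer-like regions 12.5% (50% with either set). Regions at or above their lists' median width gave 77.8% and 20%. With either MYC set left out, these shares ranged over 38.1 to 52.4% and 25 to 37.5%, and 5 to 6 windows held MYC. Widening the windows brought 1 MYCN peak into the CDK6 window. Clusters joined within 5 kb left 1 window, CCND3 with 6200 bp, among the longest 5% of clusters, in place of 2, and the CDKN1B cluster was then 2447 bp. Joined within 20 kb the count was again 2, but CDK6 (48217 bp, 4.33% of the ranking, against 6.87% at 10 kb) was among them and CDKN1B (5.94%) was not. Without joining, the broadest CDKN1B region had 5894 bp, below the 9165 bp of CDK6, and joining within 5 kb gave CDK4 a domain of 4822 bp. The widths of CDKN1B and CDK6 were the same when joined within 5 kb, but other domains grew, and they then stood at 0.206% and 0.511% of the ranking, against 0.00835% and 0.025% at 1 kb. Both the order of these domains and their place in the genome therefore depend on joining. No paired analysis was possible because no target has more than 1 library in a labelled set, and windows were compared with the genome within the same list.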

Other observations

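The first base of the highest MYC signal of set C lay a median of 690 bp from the nearest H3K27ac region in the 27 regions of the windows. Over 9482 regions of the list the median was 0 bp. Distances over 5 kb were found for 3 of the 27 (11.1%), against 12.7% of the list. Of the 13 window regions that overlapped H3K27ac, 9 had any base of this maximum inside it (69.2%, exact interval 38.6 to 90.9%), against 79.7% of all such regions. At CDKN1B the maxima of the 1359 and 2018 bp regions began 13 and 351 bp outside acetylated regions that the MYC regions overlapped. At CDK6 the maxima on the 2 sides of the 719 bp acetylated region began 742 and 690 bp from it. CDK4 had the longest distance among the windows, 10060 bp. These distances were chosen for description after the values were seen and were not tested.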
